A study of Rattus norvegicus with 12 samples.

Results

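The genes described here are the synucleins Sncb and Sncg and the Parkinson disease genes Park7, Pink1, Lrrk2, Uchl1, Htra2, Atp13a2 and Vps35. They were chosen by name, because rotenone, an inhibitor of respiratory complex I, is a toxin used to model Parkinson disease. Of the 9 genes, 8 had a probe set that carried their symbol alone, with 9 probe sets in all (2 for Sncb), out of 31099 probe sets and 14218 genes on the arrays. No probe set was matched to Lrrk2 by symbol, gene ID or accession, and Lrrk2 was not analysed here. The samples were 2 untreated rat insulinoma cell lines: CRI-G1-RR, the rotenone-resistant original clone, and CRI-G1-RS, a rotenone-sensitive subclone that arose from it in culture. Each line was measured in 6 samples, taken from 6 passages, with 1 Affymetrix array per sample. Both lines were grown in the same high-glucose medium with serum, and neither received rotenone. CRI-G1-RS is a single subclone, so effects of its rotenone sensitivity cannot be told apart from other properties of that subclone, and the p-values measure the spread between passages only.

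Synucleins are small, acidic proteins of nerve terminals and neuroendocrine cells that bind lipid vesicles. The Parkinson disease genes act at several points of cell maintenance. Park7 (DJ-1) is a redox-sensitive protein, Pink1 is a kinase that marks depolarized mitochondria for removal, and Htra2 is a protease of the mitochondrial intermembrane space. Uchl1 is a ubiquitin hydrolase that is abundant in neurons and endocrine cells, Atp13a2 is a lysosomal polyamine transporter, and Vps35 is the core subunit of retromer, which returns cargo from endosomes.

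The lines did not overlap in signal for 3 of the 9 probe sets, the brighter of Sncb and those of Park7 and Uchl1. Their promoter windows from RefSeq (GRCr8), each 300 bases around the annotated start and written 5′ to 3′ on the gene's strand, are shown so that the genes can be identified and their promoters compared. Capitals mark matches, on either strand, to 1 of 9 searched motifs. Sncb lies at chr17:9851684-9851983 (plus strand), Uchl1 at chr14:41849368-41849667 (minus strand), and Park7 at chr5:166659776-166660075 (minus strand), the farthest upstream of 3 windows listed for it.
Sncb: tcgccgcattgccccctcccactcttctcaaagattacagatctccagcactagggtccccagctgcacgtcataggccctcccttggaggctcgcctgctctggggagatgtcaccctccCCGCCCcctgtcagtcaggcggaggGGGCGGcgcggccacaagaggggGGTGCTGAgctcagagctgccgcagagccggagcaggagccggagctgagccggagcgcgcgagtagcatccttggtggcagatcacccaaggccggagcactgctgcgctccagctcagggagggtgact
Park7: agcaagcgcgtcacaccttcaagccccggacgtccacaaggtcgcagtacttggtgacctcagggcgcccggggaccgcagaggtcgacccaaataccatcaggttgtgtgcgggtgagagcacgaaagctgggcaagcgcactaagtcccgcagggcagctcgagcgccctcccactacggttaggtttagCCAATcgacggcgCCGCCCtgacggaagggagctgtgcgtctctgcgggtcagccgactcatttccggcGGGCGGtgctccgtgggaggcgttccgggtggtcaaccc
Uchl1: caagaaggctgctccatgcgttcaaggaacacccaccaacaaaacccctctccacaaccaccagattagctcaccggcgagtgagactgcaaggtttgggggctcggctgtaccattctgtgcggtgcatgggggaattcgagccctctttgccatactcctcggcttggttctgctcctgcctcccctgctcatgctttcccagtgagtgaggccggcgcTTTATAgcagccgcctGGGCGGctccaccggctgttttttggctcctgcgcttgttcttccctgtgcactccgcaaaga

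The windows held 67.0% G and C bases for Sncb, 65.3% for Park7 and 58.7% for Uchl1. All 3 held the GC box GGGCGG, which 33.1% of all 33469 promoter windows hold: 2 matches each for Sncb and Park7 and 1 for Uchl1. The Sncb window held TCAGCACC, a part of the element bound by the neuronal repressor REST, which is found in 1.48% of all windows. Park7 had the CCAAT box CCAAT (37.5% of windows) and Uchl1 a TATA box, TATAAA (14.2% of windows), on the opposite strand. The antioxidant response element core TGACNNNGC (12.1% of windows) was found in none of these windows and, among the 9 windows of 7 of the genes, only in that of Vps35. The E-box CACGTG (6.42% of windows) occurred 2 times in the Pink1 window and in no other. The cyclic AMP response element TGACGTCA (1.83% of windows), a longer E-box of lysosomal genes (0.233%) and the element of the transcription factor Nrf1 (0.598%) were found in none of the 9. A match describes letters in the window and says nothing about binding.

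Signals are linear array units, given as the lowest, median and highest of the 6 arrays of a line or as mean ± SD (n = 6), and a signal cannot be compared between probe sets. Log2 fold changes are positive where CRI-G1-RS was higher. They come from limma on quantile-normalized log2(signal + 16), which understates changes of dim genes, with Benjamini-Hochberg adjusted p-values over all probe sets. A probe set was called at an adjusted p under 0.05. Every array had a trimmed mean signal of 250.07. Pearson correlations over all probe sets were 0.979 to 0.987 within a line and 0.952 to 0.965 between lines. Replicate 2 of CRI-G1-RS had the lowest mean correlation with the other arrays of its line, 0.98.

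Of the 9 probe sets, 3 were higher in RS cells (both of Sncb, and Pink1), 2 were lower (Park7 and Uchl1) and 4 were not called (Sncg, Htra2, Atp13a2 and Vps35). Over all probe sets, limma called 31.7%, with 16.3% higher and 15.4% lower. Among probe sets with a mean signal of at least 50 it called 46.4%, and 5 of 8 of the probe sets described here. With so few genes, this share was not set apart from the background. Only the brighter Sncb probe set changed at least 2-fold, which 3.95% of all probe sets did. Non-overlapping signals were found in 3 of 9, against 20.3% of all probe sets. The median log2 fold change was 0.03 over the 9 probe sets and 0.01 over all.

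**Figure D1:**
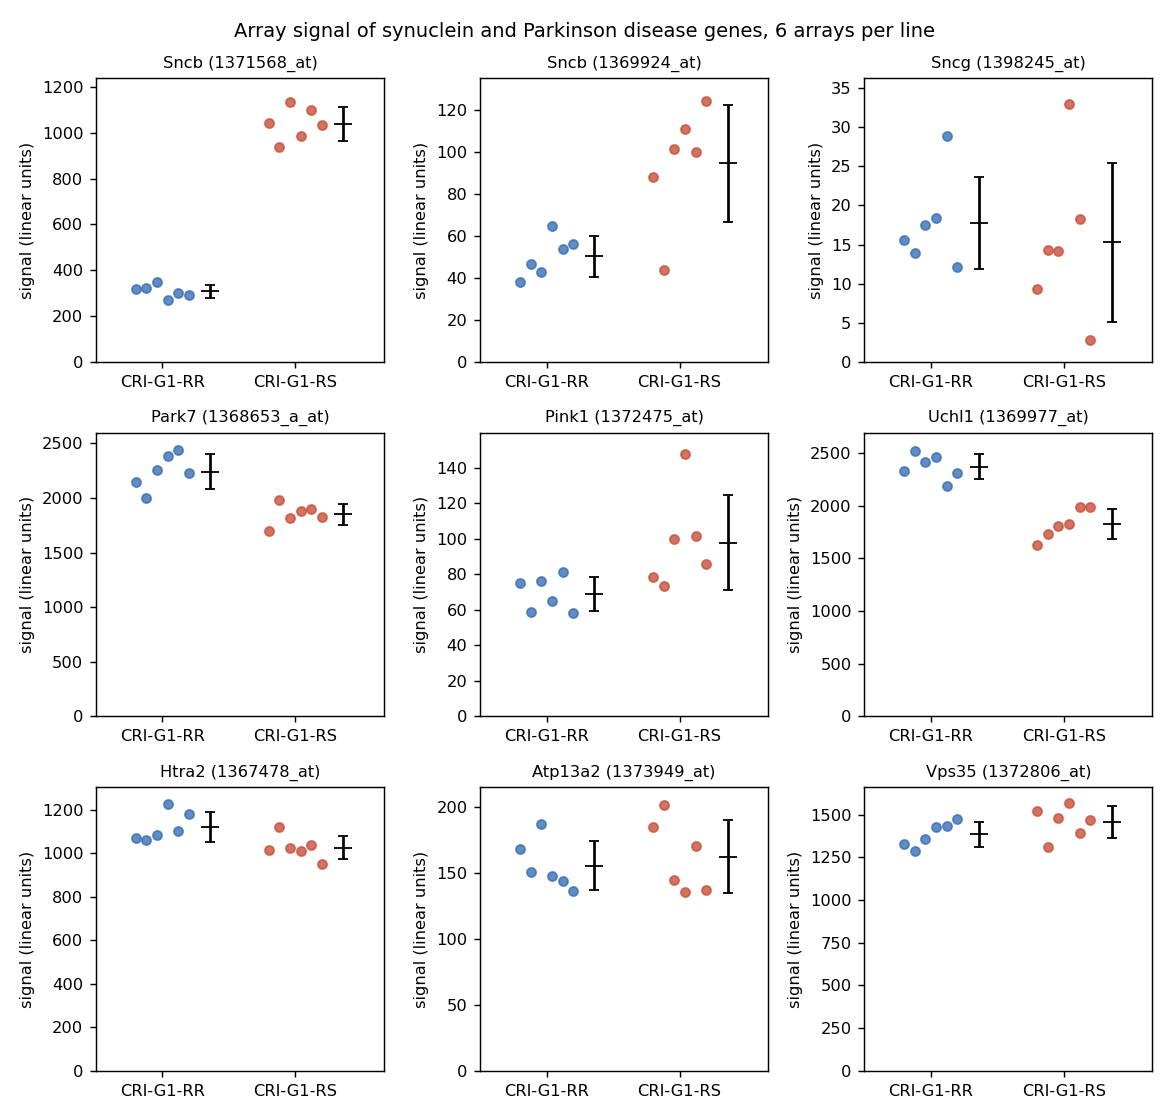
Array signal (linear units, vertical axes from 0) of the 9 probe sets in each line. Points are single arrays, 6 per line in order of replicate number, and bars are mean ± SD. The brighter Sncb probe set was higher in every CRI-G1-RS array, with a lowest RS signal of 936.5 and a highest RR signal of 348.4, and Park7 and Uchl1 were lower in every RS array.

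Sncb, which encodes beta-synuclein, showed the largest difference of these genes. The signal of its brighter probe set was 268.7 at the lowest, 308.7 at the median and 348.4 at the highest in RR cells. In RS cells these values were 936.5, 1038 and 1135. Every RS array lay above every RR array, and within each line the signal varied little, with a coefficient of variation of 8.89% in RR and 6.99% in RS cells. The mean signal was 308.5 ± 27.4 (SD, n = 6) in RR and 1039 ± 72.6 (SD, n = 6) in RS cells, a ratio of 3.37. The log2 fold change was 1.69 (SE 0.07, 95% interval 1.55 to 1.84, limma adjusted p = 2.44e-09).

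The other Sncb probe set gave a dimmer and more variable signal. It ranged from 38.09 through a median of 50.27 to 64.92 in RR cells. In RS cells it ranged from 43.6 through 100.7 to 124.3. In 5 RS arrays the signal lay above the highest RR array, and in RS replicate 2 (43.6) it lay within the RR range. This gave a log2 fold change of 0.68 (SE 0.20, 95% interval 0.25 to 1.11, limma adjusted p = 0.0189), and 0.86 without RS replicate 2 (limma adjusted p = 0.00029). The probe sets of Sncb thus gave the same direction with different sizes of change, and their intervals did not overlap.

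Sncg encodes gamma-synuclein, and its probe set was dim in both lines. The signal was 12.15, 16.59 and 28.88 (lowest, median, highest) in RR cells and 2.745, 14.26 and 33.0 in RS cells, while the median signal of an array was 69.1 to 80.2. The ranges of the lines overlapped. The log2 fold change was -0.15 (95% interval -0.56 to 0.26, limma adjusted p = 0.616), and the interval held changes in either direction. Single arrays moved it from -0.02 (without RS replicate 6) and -0.06 (without RR replicate 5) to -0.29 (without RS replicate 4).

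Park7, whose protein DJ-1 protects cells against oxidants and stabilizes the transcription factor Nrf2 in some cell types, fell in RS cells. Its signal was 2004, 2242 and 2436 (lowest, median, highest) in RR cells. In RS cells it was 1695, 1855 and 1981, so every RS array lay below every RR array. The means were 2242 ± 158 (SD, n = 6) in RR and 1850 ± 96.4 (SD, n = 6) in RS cells, a ratio of 0.825. The log2 fold change was -0.25 (SE 0.06, 95% interval -0.37 to -0.12, limma adjusted p = 0.00541). By the ending of its ID, this probe set can detect several transcripts of the gene.

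Uchl1, the neuroendocrine ubiquitin hydrolase, also fell. The signal was 2183, 2370 and 2516 in RR cells and 1627, 1814 and 1988 in RS cells, again without overlap. The mean signal was 2368 ± 121 (SD, n = 6) in RR and 1827 ± 142 (SD, n = 6) in RS cells, a ratio of 0.771. Uchl1 thus had a log2 fold change of -0.34 (SE 0.07, 95% interval -0.49 to -0.20, limma adjusted p = 0.00129).

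Pink1, the kinase that recruits the mitophagy machinery to damaged mitochondria, had a low signal and was called by a narrow margin. It ranged from 58.22 through a median of 69.83 to 81.04 in RR cells. In RS cells it ranged from 73.47 through 92.63 to 147.5, the highest value being that of replicate 4. The signal lay above the highest RR array in 4 RS arrays and within the RR range in replicates 1 and 2. For Pink1 the log2 fold change was 0.37 (SE 0.13, 95% interval 0.08 to 0.66, limma adjusted p = 0.0492). The call was lost on leaving out any of RR replicates 1, 2, 3, 4 and 6 and RS replicates 3, 4, 5 and 6, with limma adjusted p-values of 0.0564 to 0.101 and log2 fold changes of 0.26 to 0.40. It was kept without RR replicate 5 or RS replicates 1 or 2.

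Htra2, the mitochondrial protease, was slightly dimmer in RS cells without passing the test. Its signal was 1060, 1092 and 1227 in RR and 951.3, 1020 and 1120 in RS cells, with 5 RS arrays below the lowest RR array and RS replicate 2 within the RR range. The log2 fold change was -0.12 (95% interval -0.25 to 0.0002, limma adjusted p = 0.127). Without RS replicate 2 it was -0.15 and passed (limma adjusted p = 0.0475).

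Atp13a2, the lysosomal transporter, had nearly the same range in both lines, from 136 to 186.8 with a median of 149.5 in RR cells and from 135.6 to 201.3 with a median of 157.6 in RS cells. Its log2 fold change was 0.03 (95% interval -0.19 to 0.26, limma adjusted p = 0.851). Vps35, the retromer subunit, ranged from 1285 through 1392 to 1472 in RR and from 1309 through 1473 to 1566 in RS cells. The ranges overlapped, and the log2 fold change was 0.08 (95% interval -0.05 to 0.20, limma adjusted p = 0.372). For both genes the intervals excluded a 2-fold change in either direction.

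**Figure D2:**
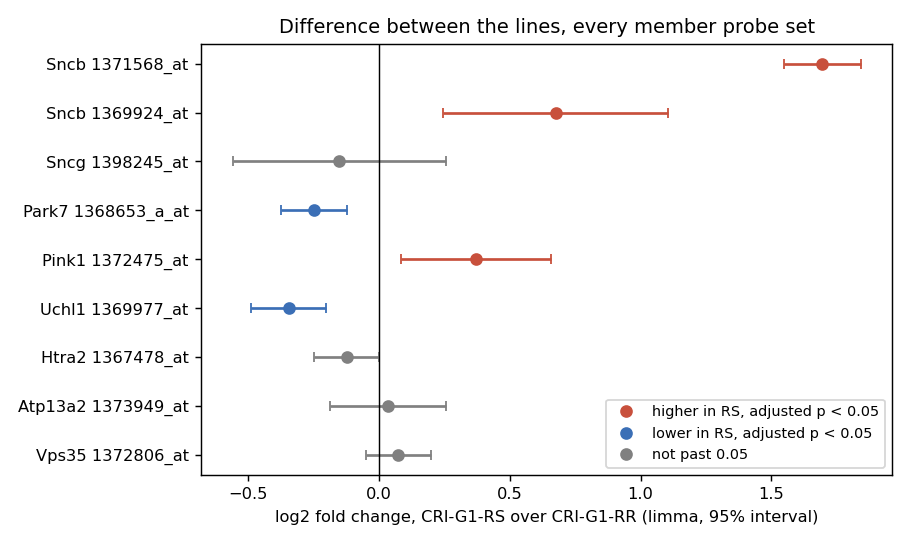
Log2 fold change of CRI-G1-RS over CRI-G1-RR (horizontal axis) for each of the 9 probe sets, with the 95% interval from limma over 6 arrays per line. Red and blue points passed an adjusted p of 0.05, higher or lower in RS cells, and grey points did not. The brighter Sncb probe set stood at 1.69, Uchl1 at -0.34 and Park7 at -0.25.

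In bulk RNA, fewer cells of a type and less RNA per cell cannot be told apart. Beta cell markers also differed between the lines: of 12 listed, 10 had a probe set, 7 rose and 1 fell. Those that rose were Ins2 (722.4 ± 206 in RR and 1760 ± 173 in RS cells), Pdx1, Nkx6-1, Nkx2-2, Neurod1, Chga and Scg2. The glucose transporter gene Slc2a2 fell, from 9.701 ± 7.55 in RR to 1.644 ± 0.324 in RS cells. Both of these means lay far below the array medians of 69.1 to 80.2. The summed signal of the beta cell markers was 16920 to 19180 over the RR arrays and 21390 to 24150 over the RS arrays. Ins1 was bright in both lines, at 7118 ± 309 in RR and 6495 ± 978 in RS cells. It was not called here (log2 fold change -0.06, limma adjusted p = 0.408). The study reported Ins1 as higher in RS cells, both on its arrays and by qRT-PCR. The alpha cell hormone gene Gcg was also bright and not called, at 7329 ± 362 and 6589 ± 576. The other of 2 measured alpha cell markers, the transcription factor gene Irx2, fell from 197.6 ± 39.7 to 71.74 ± 12.8 (log2 fold change -1.30, limma adjusted p = 1.16e-05), and the summed alpha cell signal was 7016 to 8015 in RR and 6040 to 7612 in RS cells. None of 5 macrophage, 5 acinar and 3 glial markers was called, and of 6 fibroblast markers 1 was (Pdgfra, higher). The summed signals in RR and RS cells were 156 to 261.6 and 175 to 237 for macrophage markers, 114.8 to 163.4 and 74.76 to 143.4 for acinar markers, 411.3 to 541.4 and 388.7 to 548.3 for glial markers, and 230.5 to 299.5 and 306.8 to 390.2 for fibroblast markers. Whether these levels play a part in the differences of the synuclein and Parkinson disease genes was not tested.

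The lowest and highest values of these genes within each line were also counted by array. RR replicate 5, with a mean correlation of 0.981 with its line, held such a value for 4 of the 9 probe sets. RS replicate 2, at 0.98, had the lowest or the highest RS signal for 7 of the 9 probe sets, against 1 to 4 for any other array within its line. It was the lowest of its line for both Sncb probe sets, Pink1 and Vps35, and the highest for Park7, Htra2 and Atp13a2. For Sncb, Park7, Pink1 and Htra2 this placed it on the side of the RR arrays. Without it the log2 fold changes were 1.72 for the brighter Sncb probe set, -0.27 for Park7, -0.33 for Uchl1 and 0.44 for Pink1, all called by limma (adjusted p of 1.08e-08, 0.00386, 0.00293 and 0.0184). Whether array quality plays a part in these values was not tested.

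After the mean of each line was subtracted, the deviations of the 9 probe sets over the 12 arrays were compared in 36 pairs, as a description. The highest Pearson r was that of Sncg and Pink1, 0.746, followed by that of the dimmer Sncb probe set and Vps35, 0.668. The lowest was that of the dimmer Sncb probe set and Atp13a2, -0.806, with -0.720 within RR and -0.835 within RS cells. Between the dimmer and the brighter Sncb probe set r was -0.004, with -0.842 within RR and 0.643 within RS cells. These pairs share each array's hybridization and scaling, and several of the probe sets are dim.

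Among 8684 genes whose mean signal reached 100, those whose log2 signals were most like each called gene over the 12 arrays were also found. A high r follows from any shared difference between the lines. For Sncb they were Snhg4, a small nucleolar RNA host gene (r = 0.997, and 0.966 within RR and 0.699 within RS cells), and Gnat3, a G protein subunit gene of taste cells (r = 0.995, and 0.315 and 0.547). For Park7 they were Rpl37a, a ribosomal protein gene (r = 0.963), and Polr2j, an RNA polymerase subunit gene (r = 0.954). For Uchl1 they were Elmo3 (r = 0.977) and Pld1 (r = 0.944), and for Pink1 Sh3bgrl3 (r = 0.928) and Tfb2m, a mitochondrial transcription factor gene (r = 0.921). Neither Sh3bgrl3 nor Tfb2m was itself called (limma adjusted p = 0.0652 and 0.116). Their r with Pink1 was 0.982 and 0.898 within RS cells, and 0.562 and 0.649 within RR cells.

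Genes of the pathways in which these genes act were then counted, each by its probe set of highest mean signal. Of 142 genes in 9 lists, 127 were measured, and limma called 43 higher and 34 lower in RS cells. Over all 14218 genes it called 39.2%, with 21.0% higher and 18.3% lower. That background includes dim genes, and a share at like signal was not computed for the lists. Among probe sets with a mean signal of at least 50, limma called 46.4%, against 31.7% of all probe sets. The median log2 fold change was 0.03 over the listed genes and 0.02 over all genes.

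**Figure D3:**
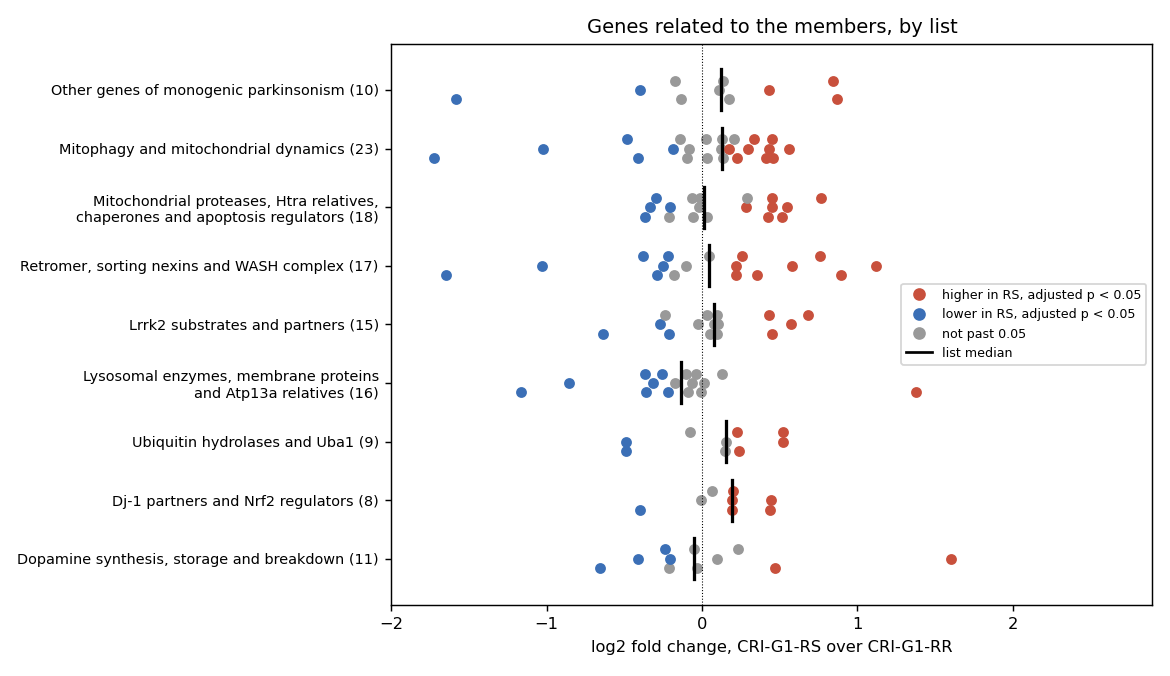
Log2 fold change of CRI-G1-RS over CRI-G1-RR (horizontal axis) for the measured genes of 9 lists, with the number of genes in brackets. Each point is 1 gene, red or blue where it passed an adjusted p of 0.05 by limma, and black bars are list medians. Genes moved in both directions in each list, and the medians lay between -0.14 (lysosomal list) and 0.19 (Dj-1 and Nrf2 list).

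Of 8 measured Dj-1 partners and Nrf2 regulators, 5 rose and 1 fell, with a median of 0.19. Keap1, which targets Nrf2 for degradation, rose from 240.9 ± 22.8 (SD, n = 6) in RR to 337.5 ± 29.7 (SD, n = 6) in RS cells (log2 fold change 0.45, limma adjusted p = 0.000439). Nfe2l2, the gene of Nrf2 itself, fell from 1032 ± 69.2 to 781.6 ± 77.6 (-0.40, limma adjusted p = 0.000825). The study reported the same directions on its arrays. Its qRT-PCR also found Keap1 higher in RS cells, but showed no significant difference for Nfe2l2. Daxx, a DJ-1 binding protein, had a log2 fold change of 0.44 (limma adjusted p = 0.0127). The number of genes higher was 3 without RS replicate 1 and 2 when arrays were centred on their median.

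Of 23 measured genes of mitophagy and mitochondrial dynamics, the processes downstream of Pink1, 9 rose and 5 fell, with a median of 0.13. Optn, the mitophagy receptor optineurin, fell from 713.9 ± 44.4 to 206 ± 16.6 (log2 fold change -1.73, limma adjusted p = 1.04e-09). Tbk1, the kinase that phosphorylates it, fell from 1075 ± 54.3 to 524.3 ± 50.8 (-1.02, limma adjusted p = 1.43e-07). The fission gene Dnm1l (0.56) and the inner membrane fusion gene Opa1 (0.46) were the largest increases, and the lines overlapped for Dnm1l.

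Of 18 genes that act with or beside Htra2 (mitochondrial proteases, Htra relatives, mitochondrial chaperones and apoptosis regulators), 7 rose and 4 fell, with a median of 0.01. The largest changes were those of Birc2 (0.77), an inhibitor of apoptosis that Htra2 can bind, and Pmpcb (0.54), a subunit of the mitochondrial processing peptidase. Pmpcb rose from 1358 ± 67.2 to 1964 ± 88.7. The chaperone gene Hspa9 and Diablo, which antagonizes inhibitors of apoptosis, were among those that rose. The matrix proteases Lonp1 (-0.37) and Clpp (-0.33) fell. The number that fell was 2 on leaving out RR replicate 4 or 5 or RS replicate 1, 3 or 5.

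Of 17 genes of retromer, sorting nexins and the WASH complex, 8 rose and 6 fell, with a median of 0.04. While Vps35 was not called, its retromer partner Vps26b rose from 449 ± 78.4 to 845.1 ± 34.7 (log2 fold change 0.89, limma adjusted p = 1.07e-05). Vps29 rose too (0.26, limma adjusted p = 0.00599), and Vps26a was not called (-0.18, limma adjusted p = 0.0531). The sorting receptor gene Sorl1 rose from 422.1 ± 71.8 to 934.4 ± 88.8 (1.12, limma adjusted p = 3.83e-06). In the WASH complex, which retromer recruits to endosomes, Washc3 fell from 3220 ± 149 to 1008 ± 40.1 (-1.65, limma adjusted p = 3.61e-10) and Washc4 from 1448 ± 103 to 712.8 ± 142 (-1.03, limma adjusted p = 3.41e-05). Washc1 (-0.38) and Washc2c (-0.22) fell as well, while Washc5 rose from 841.8 ± 77.5 to 1258 ± 68.8 (0.58, limma adjusted p = 2.01e-05).

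Of 16 measured lysosomal enzymes, membrane proteins and Atp13a relatives, 1 rose and 7 fell, with a median of -0.14. Smpd1, acid sphingomyelinase, fell from 1667 ± 88.8 to 740.6 ± 64.4 (log2 fold change -1.16, limma adjusted p = 6.73e-08), and the galactosylceramidase gene Galc fell from 553.8 ± 45.2 to 300.6 ± 28.6 (-0.86, limma adjusted p = 1.34e-06). Scarb2, a lysosomal membrane protein, was the gene that rose, from 137.1 ± 30.5 to 381.1 ± 35.7 (1.38, limma adjusted p = 1.12e-06). The 7 of 16 that fell stand beside 18.3% of all genes, dim ones included, and no share at like signal was computed. With the probe set of smallest p for each gene, 2 rose and 6 fell.

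Of 9 measured genes of a list on ubiquitin release and activation, 4 rose and 2 fell, with a median of 0.15. The measured genes were ubiquitin hydrolases and Uba1, the ubiquitin-activating enzyme, which was among those that rose. Beside Uchl1, its relative Uchl3 had signals of 1822 ± 90.8 and 1721 ± 107 (log2 fold change -0.08) and was not called. The proteasome-bound hydrolase gene Usp14 (0.52) and Usp5 (0.52) rose, and Usp9x (-0.49) and Usp8 (-0.49) fell. The number higher was 2 without RR replicate 1 or 6, and the number lower was 1 with the probe set of smallest p for each gene.

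Of 10 measured genes of a list drawn up for other genes of monogenic parkinsonism, 3 rose and 2 fell, with a median of 0.12. Whether each listed gene is an established cause of the disease was not examined here. Fbxo7, a ubiquitin ligase subunit, fell from 991.8 ± 78.7 to 322.8 ± 32.6 (log2 fold change -1.58, limma adjusted p = 1.23e-08). Tmem230, a vesicle membrane protein, fell by 0.40. Dnajc6, the clathrin uncoating factor auxilin, rose from 1715 ± 119 to 3052 ± 197 (0.85, limma adjusted p = 7e-07), and the synuclein-interacting protein gene Sncaip from 54.57 ± 8.73 to 115.3 ± 17.6 (0.87, limma adjusted p = 1.55e-05). The RR mean of Sncaip lay below the array medians.

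Of 15 measured Lrrk2 substrates and partners, 4 rose and 3 fell, with a median of 0.08. The 14-3-3 gene Ywhaz rose from 2639 ± 67.6 to 4040 ± 238 (0.68) and the vesicle GTPase gene Rab3a from 419.7 ± 43.9 to 638.2 ± 54.3 (0.57). Ppm1h, the phosphatase that reverses Lrrk2 phosphorylation of Rab proteins, fell from 563 ± 93.6 to 358.1 ± 53.7 (-0.64), and the substrate Rab8a fell from 1257 ± 48 to 1038 ± 50.2 (-0.27).

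Of 11 measured genes of dopamine synthesis, storage and breakdown, 2 rose and 4 fell, with a median of -0.05. Gch1, which supplies the cofactor of tyrosine hydroxylase, rose from 181.4 ± 69.2 to 565.6 ± 72.2 (log2 fold change 1.60, limma adjusted p = 2.71e-05), and the monoamine oxidase gene Maob rose from 745.3 ± 62.9 to 1041 ± 57.3 (0.47). Slc18a1, the vesicular monoamine transporter of endocrine cells, fell from 728.3 ± 161 to 451.6 ± 60.2 (-0.66), and the aldehyde dehydrogenase gene Aldh1a1 from 61.66 ± 9.03 to 43.15 ± 5.63 (-0.41). Both means of Aldh1a1 lay below the array medians. Of the markers of dopamine neurons, Th and Slc6a3 were not called. Th had means below the array medians, 44.82 ± 12.7 in RR and 44.01 ± 12.5 in RS cells. Slc6a3 stood at 87.65 ± 14.1 and 86.02 ± 17.3. Ddc, of the same list, was bright and among those that fell, from 5246 ± 267 to 4345 ± 286 (-0.20, limma adjusted p = 0.0216).

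Each gene was also set beside its 50 nearest genes on the chromosome (GRCr8 order, mean signal of at least 100). Around Sncb their median log2 fold change was 0.04, with 14 higher and 10 lower, while Sncb itself was at 1.69. Uchl1 (-0.34) and Park7 (-0.25) fell among neighbors with medians of 0.34 (30 higher and 3 lower) and 0.22 (24 higher and 9 lower). The medians were 0.07 around Pink1 and 0.26 around Atp13a2.

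Of 34 genes named from the related lists, 27 had the sign of the median of their nearest genes and 7 the opposite sign. Medians near 0 were counted by their sign, and the share over all genes was not computed. The genes are not separate cases, because genes that lie close together share neighbors. Washc3, Washc4, Fbxo7, Tbk1 and Ppm1h all lie on chromosome 7, as does Ywhaz. The medians of the nearest genes were -1.08 around Washc3, -1.03 around Washc4, -0.92 around Fbxo7, -0.79 around Tbk1 and Ppm1h, -0.43 around Smpd1, and 0.59 around Scarb2, each of the sign of the gene itself. The genes of opposite sign were Ywhaz (0.68, neighbors at -0.30), Aldh1a1 (-0.41, neighbors at 0.37), Nfe2l2 (-0.40, neighbors at 0.13), Slc18a1 (-0.66, neighbors at 0.12), Galc (-0.86, neighbors at 0.11), Usp9x (-0.49, neighbors at 0.11) and Rab3a (0.57, neighbors at -0.05). Around Optn (-0.03), Sorl1 (0.05), Dnajc6 (0.02) and Gch1 (0.02) the medians were near 0. The copy number of these stretches was not analysed here.

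**Figure D4:**
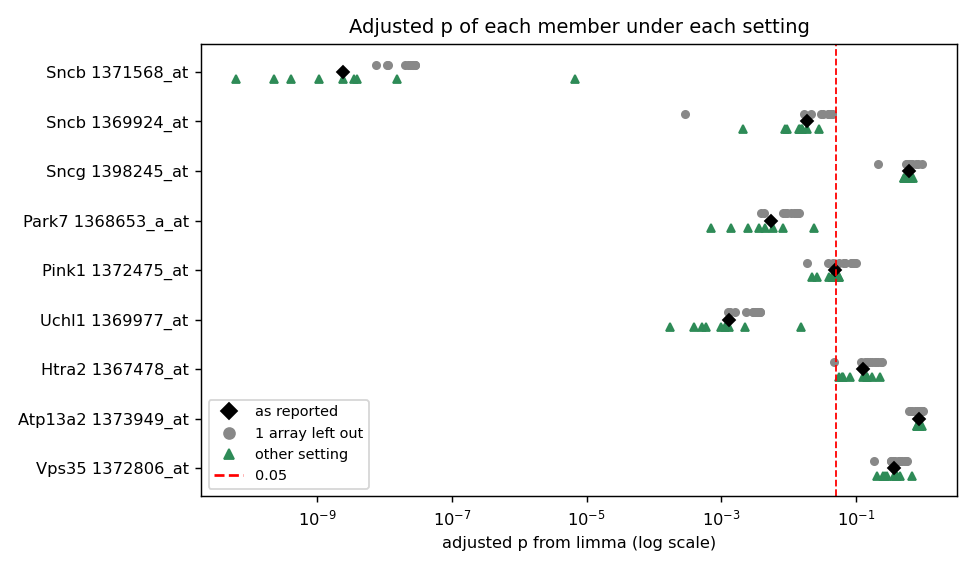
Adjusted p from limma (logarithmic axis) of each probe set as reported (diamonds), with each of the 12 arrays left out in turn (grey circles) and under the other processing settings (green triangles). The dashed line marks 0.05. Sncb, Park7 and Uchl1 stayed below the line throughout, Pink1 crossed it, and of the others only Htra2 crossed it, in 1 case.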

How the data were processed

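Total RNA of 6 samples per cell line was amplified, labeled and hybridized to rat Affymetrix arrays, 1 per sample. The deposited values were linear signal intensities per probe set; the processing notes of the submitters list GCOS 1.4. They are not the log2 values from robust multi-chip averaging that the Methods name. They were therefore quantile normalized, taken as log2(signal + 16) and fitted with limma 3.58.1 (R 4.3.3), with cell line as the only term, no filter on low signal and Benjamini-Hochberg adjustment over all 31099 probe sets at 0.05. The fit was tested on simulated data. The precision is limited by the number of arrays. Scan dates and detection calls were not used here.

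Symbols came from the platform annotation (20832 probe sets with 1 symbol, 436 with several, 9831 with none), and only probe sets with 1 symbol were named. The 9 genes, the 9 lists and the cell type markers were chosen with earlier results of these data known. Of each list, up to 2 genes with the largest called change in each direction were named, beside Keap1 and Nfe2l2. Uchl3, Th, Slc6a3, Ddc, Hspa9, Diablo, Uba1, Vps26a, Vps29, Washc1, Washc2c and Washc5 were named outside this rule, after values were seen. The named markers, the nearest genes, the motifs, the count of extreme arrays and the background at a mean signal of at least 50 were also chosen then. Alternatives were other scalings, pseudocounts of 1 and 64, a filter on dim probe sets, no probe sets shared by several genes or transcripts, array weights, an intensity trend, replicate number as a block, another choice of probe set per gene, a 2-fold threshold and leaving out each array.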

Additional observations from a re-analysis of the deposited data

Results flagged for a closer look

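In each line, each probe set was searched for an array that stood apart from the other 5 (Dixon's criterion). Of 18 groups of 6 arrays, 1 held such an array. This was the Sncg signal of CRI-G1-RR replicate 5, 28.88, with a gap to the next array of 0.627 of the group's range. Chance gives about 1 such group in 20.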

How the results depend on the processing

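Sncb (both probe sets), Park7 and Uchl1 kept their direction and an adjusted p under 0.05 by limma in all alternatives in which they were tested. Under the added 2-fold threshold only the brighter Sncb probe set kept its call. Pink1 lost its call with a pseudocount of 1 (log2 fold change 0.44, limma adjusted p = 0.0565) and with an intensity trend (0.37, limma adjusted p = 0.0552), and with 1 array left out it ranged from 0.26 to 0.44. With 1 array left out, Htra2 ranged from -0.15 to -0.10, and Atp13a2 from -0.03 to 0.0828, changing sign without RS replicate 1 (-0.0027) or 2 (-0.0263). The cause was not tested. With at least a 2-fold change required, 1 probe set of these genes was higher and 0 were lower, against 571 and 658 of all probe sets (5083 and 4777 without that limit). Leaving out probe sets whose ID ends in _x_at, _s_at or _a_at (several genes or transcripts) removed that of Park7, so 1 was lower. Sncg, not called in any setting, ranged from -0.42 (pseudocount of 1) to -0.05 (pseudocount of 64) and from -0.29 to -0.02 with 1 array left out.

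The replicate number as a block kept 3 probe sets higher and 2 lower, with 4730 and 4474 over all probe sets and 40 and 31 genes over the lists. The labels state that passages were collected in pairs, not that the number gives the pair. Deviations of arrays with the same number correlated at -0.04 to 0.21, and in 2 of 6 cases the own number correlated best, so the numbers were not taken as pairs. The block changed no call of these genes. Sncg, Pink1 and the dimmer Sncb probe set had signals near or below the array medians, which limits their precision.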
